A study of Mus musculus with 6 samples.

Results

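The transcripts described here are those of 36 genes of the centrosome, the centriole and the nucleation of microtubules. They were listed by name for their known roles, as were the related genes, with earlier results of these data known. Shares set beside those of all genes are therefore descriptions and were not tested. A probe set was counted for a gene only where the platform annotation gave it that gene symbol alone. All 36 genes had such a probe set, 77 in total, among 18193 genes named in this way and 45037 probe sets tested. A single probe set stood for each of 14 members, and the other 22 had 2 to 6. The cells were C2C12, an immortalized line of mouse myoblasts, which fuse into multinucleated myotubes when serum is lowered. Proliferating cultures in 20% serum and differentiated cultures on day 6 in 2% horse serum were each measured on 3 Affymetrix mouse arrays. Each RNA sample was a mixture of pools from several plates grown at the same time and on successive days, so the spread between arrays is that between pools. Low-serum cultures of this line also keep mononucleated cells beside the myotubes.

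Centrosomes of dividing cells consist of a pair of centrioles within a pericentriolar matrix. The matrix holds rings of gamma-tubulin, from which microtubules grow, and a new centriole is built beside each old one in every cell cycle by a short chain of factors led by the kinase Plk4. When myoblasts differentiate, they leave the cell cycle, and proteins of the matrix and the nucleation of microtubules are known to move from the centrosome to the outer surface of the nuclear envelope.

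Values are linear MAS5 signals, and a change is the difference in log2(signal + 15), differentiated minus proliferating, fitted with limma and given with its standard error (SE). The threshold for a call was 0.05 after Benjamini-Hochberg adjustment over all 45037 probe sets. A gene is represented by its brightest probe set. Probe sets differ in their response, so signals of different genes are not set against each other. Median signals of the 6 arrays ran from 68.0 to 81.4. The brightest of 27 bacterial control probe sets lay between 51.9 and 87.0, and a signal at or under the control of its own array was read as background. Markers of dividing cells (Mki67, Top2a, Ccna2, Cdk1, Bub1b and Birc5) were lower in all 6 cases, with a summed signal of 15041 to 15381 on the proliferating arrays and of 1360 to 1419 on the differentiated ones. All 7 myotube markers were higher, with sums of 651 to 806 and of 65763 to 69584. The part of these shifts in the changes described here was not tested. In such mixed cultures fewer cells with a transcript and less of it per cell cannot be told apart. Of 2 adipocyte, 3 macrophage and 3 endothelial markers none was called. Their sums on proliferating and then differentiated arrays were 9.6 to 82.1 and 35 to 108 (adipocyte), 327 to 379 and 390 to 424 (macrophage, with Cd68 and Csf1r above background on all 6 arrays) and 128 to 189 and 93.1 to 205 (endothelial).

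Genes that start a new centriole and the gamma-tubulin of the ring were lower in differentiated cultures, and the scaffold of the nuclear envelope Akap6 was higher. Of the 36 members, 8 fell, namely Plk4, Stil, Sass6, Cep192, Odf2, Tubg1, Tubgcp2 and Nedd1. These are 22.2% of the members, where 9.0% of all genes were called lower. The 1 member that rose, Akap6, is 2.78% of the list, beside 8.63% of all genes called higher. All 9 changes reached 1.5-fold, Stil as a lower bound. No call was made for the other 27 members. The median log2 fold change was -0.38 over the members and 0.06 over all genes. Signals of the groups did not overlap for 16 members in the lower direction (44.4%, beside 15.4% of all genes) and for 4 in the higher direction (11.1%, beside 18.0%). With 3 arrays a group, an exact permutation test of a single gene cannot give a p under 0.1. In 31 members the signal was above background on every array of at least 1 group. Cep135, Cep72, Cep290 and Tubg2 were at background on all 6 arrays, and Cep250 was above it on 3 of the 6.

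**Figure D1:**
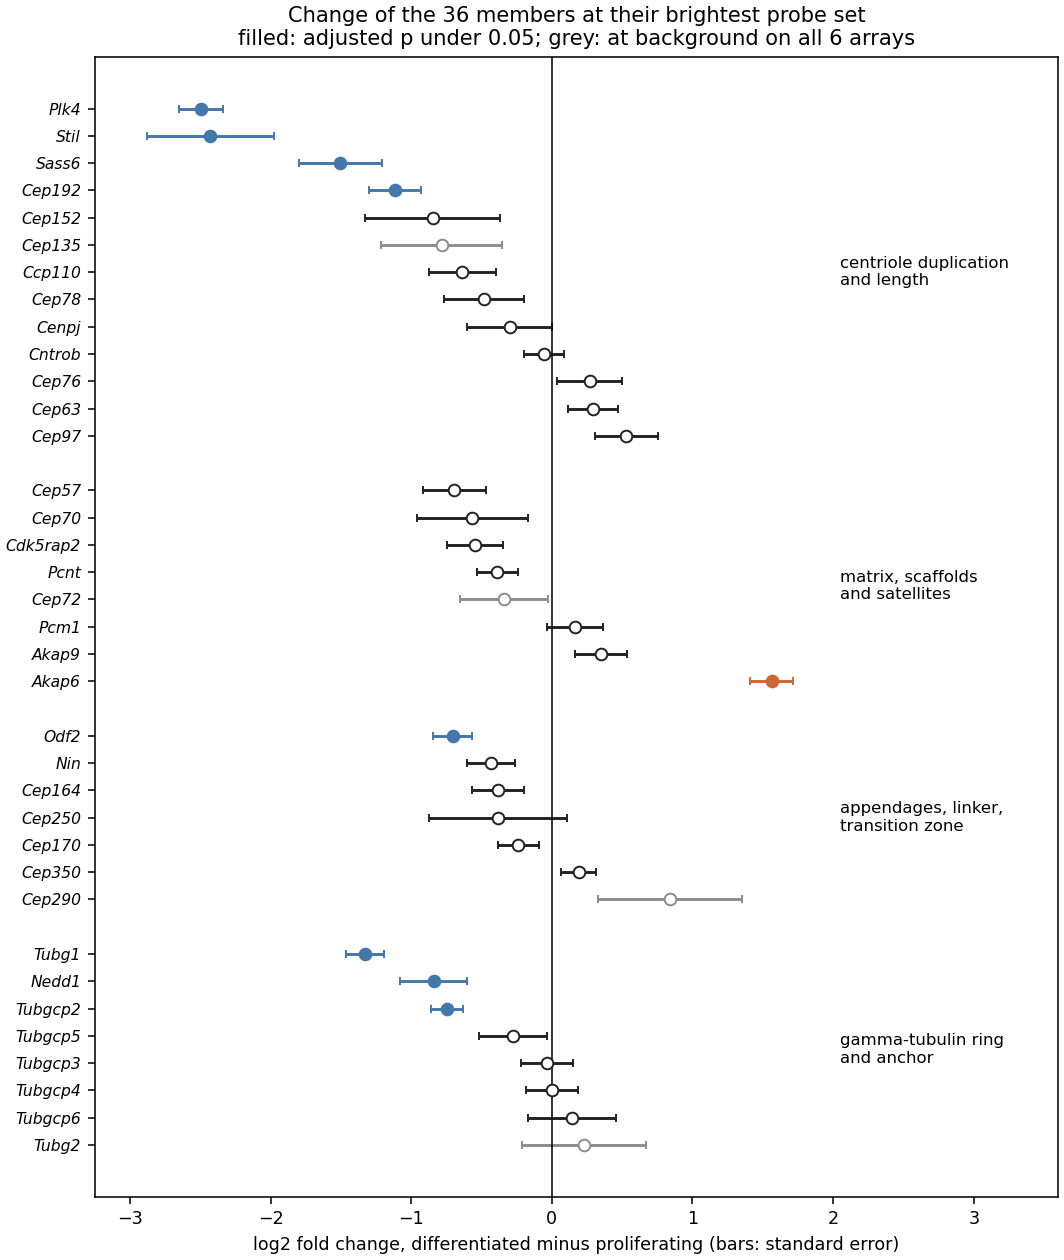
Change between the groups (horizontal axis, log2 scale, day 6 minus proliferating, 3 arrays each) of the 36 members at their brightest probe set, by role, with bars for the standard error. Filled points have an adjusted p under 0.05 and grey ones were at background on all 6 arrays. Of the 9 filled points, 8 lie left of 0 and Akap6 alone lies right of it, at 1.56. The value of Stil is fitted and is not a bound.

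All 3 factors that found a new centriole fell. In proliferating cells the signals of Plk4, the kinase that starts duplication, were 974, 864 and 954, and on day 6 they were 175, 122 and 167. No differentiated array came near the lowest proliferating one. This was a fall of Plk4 by 2.49 on the log2 scale (SE 0.16, adjusted p = 3e-07), or 5.62-fold. Its other probe sets also passed, at -2.28 and -1.57 (adjusted p = 4.8e-07 and 0.0033). Stil, which Plk4 phosphorylates and which recruits Sass6, stood at 107, 88.1 and 137 in proliferating cells. On the differentiated arrays Stil stood at 9.6, 7.4 and 7.4, all at background. Its fall (adjusted p = 0.0025) therefore has only a bound, at least 1.85-fold. Sass6, whose protein forms the cartwheel that gives the centriole its symmetry, was at 262, 165 and 267 and then at 60.5, 90.1 and 62.9. The differentiated signals of Sass6 were low yet each above the control of its array. Sass6 fell by 1.50 on the log2 scale (SE 0.29, adjusted p = 0.0036). A dimmer probe set of Sass6 was at background on day 6, had a fitted value of -1.69 and did not pass (adjusted p = 0.057).

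Promoters of this trio are shown because its genes start duplication and all fell, and that of Akap6 because it was the member that rose. Each window runs from 250 bases before to 50 bases after the annotated start, read 5′ to 3′ on the strand of the gene, from RefSeq on GRCm38.p6. Capitals mark 3 motifs known from promoters of cell cycle genes, found on either strand: the cell cycle homology element as TTTGAA or as TTTAAA, the box CCAAT, and the E2F motif as TTTCGCGC or TTTGGCGC. The windows lie at chr3:40799701-40800000 for Plk4, chr4:114999868-115000167 for Stil, chr3:116594708-116595007 for Sass6 and chr12:52699133-52699432 for Akap6, all on the + strand.
Plk4: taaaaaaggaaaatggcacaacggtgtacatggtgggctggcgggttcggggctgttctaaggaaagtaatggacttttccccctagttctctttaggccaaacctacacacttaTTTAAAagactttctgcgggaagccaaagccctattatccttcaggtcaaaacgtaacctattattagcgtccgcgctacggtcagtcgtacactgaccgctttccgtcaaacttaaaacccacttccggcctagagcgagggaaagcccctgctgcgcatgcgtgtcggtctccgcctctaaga
Stil: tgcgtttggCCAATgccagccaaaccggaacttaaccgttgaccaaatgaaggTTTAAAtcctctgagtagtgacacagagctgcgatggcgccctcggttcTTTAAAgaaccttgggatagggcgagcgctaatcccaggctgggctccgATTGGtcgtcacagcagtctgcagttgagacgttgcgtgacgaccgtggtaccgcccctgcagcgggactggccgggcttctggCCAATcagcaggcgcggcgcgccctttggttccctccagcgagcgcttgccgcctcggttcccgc
Sass6: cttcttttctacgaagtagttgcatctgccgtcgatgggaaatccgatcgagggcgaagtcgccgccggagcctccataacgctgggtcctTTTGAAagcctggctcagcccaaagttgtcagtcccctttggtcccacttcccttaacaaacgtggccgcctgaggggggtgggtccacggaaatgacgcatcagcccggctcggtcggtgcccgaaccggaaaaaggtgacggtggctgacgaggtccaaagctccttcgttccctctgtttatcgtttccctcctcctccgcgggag
Akap6: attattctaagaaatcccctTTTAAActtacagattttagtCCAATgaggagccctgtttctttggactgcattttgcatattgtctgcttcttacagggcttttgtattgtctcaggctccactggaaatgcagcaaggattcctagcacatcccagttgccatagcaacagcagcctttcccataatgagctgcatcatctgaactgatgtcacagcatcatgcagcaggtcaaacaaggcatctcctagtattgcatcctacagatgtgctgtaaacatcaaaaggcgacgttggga

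A promoter was given for 28 of the 36 members, 35 windows in all, and for 4 of the 8 that fell (Plk4, Stil, Sass6 and Odf2). A match to TTTGAA or TTTAAA was present in 14 of the 35 windows (40%), beside 27.6% of all 32851 windows of this length. By gene, 12 of the 28 members had a match. Among them were all 4 fallen genes with a promoter and Akap6, which rose, and the others were not called. The share by gene over all genes was not worked out. Plk4 and Stil held TTTAAA, and Sass6 and Odf2 held TTTGAA, the latter in 3 of its 4 overlapping windows. The box CCAAT was in 16 of the 35 windows (45.7%, beside 37.4% of all) and in 12 of the 28 members. Overlapping windows of a gene can hold the same box, as those of Odf2 do. Stil held 3 such boxes, while neither Plk4 nor Sass6 held any. The E2F motif was in 1 member, Cep63 (0.813% of all windows). No motif contains another. A match is a string of letters and not a bound site.

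Of the scaffolds that bring Plk4 to the old centriole, Cep192 fell, with signals of 374, 319 and 438 and then of 150, 190 and 157. All 3 differentiated values were under the lowest proliferating one. Its value was -1.11 (SE 0.18, adjusted p = 0.0011). A second, dim probe set of Cep192 was above background on 3 of the 6 arrays and was at 0.71 (adjusted p = 0.54). With both averaged, Cep192 was not called (-0.20, adjusted p = 0.70). Cep152, the partner scaffold, was not called (87.4, 121 and 91.0, then 103, 46.5 and 19.8; adjusted p = 0.34). Its single probe set was above background on 1 of 3 differentiated arrays and the groups overlap. Cep63, which binds Cep152, was at 0.29 (SE 0.17, adjusted p = 0.37).

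The other members that build or limit the centriole gave no call. Cenpj (CPAP), which sets centriole length, had signals of 129, 124 and 184 and then of 95.4, 92.5 and 164. The groups of Cenpj overlap, and its log2 fold change was -0.30 (SE 0.30, adjusted p = 0.65). Ccp110 and Cep97 form the cap at the distal end of the centriole, and their values lie on opposite sides of 0. Ccp110 was at 301, 192 and 202 and then at 162, 149 and 116, a log2 fold change of -0.64 (SE 0.24, adjusted p = 0.12). Cep97 was at 132, 123 and 180 and then at 232, 217 and 194, a log2 fold change of 0.53 (SE 0.22, adjusted p = 0.17). In both genes the groups do not overlap. All 4 probe sets of Cep97 had fitted values above 0. Cep76, which limits reduplication, was at 0.27 and -0.22 at its 2 probe sets (adjusted p = 0.58 and 0.76). Cep78 was at -0.48 (adjusted p = 0.37) with groups that do not overlap, and Cntrob (centrobin, of the daughter centriole) at -0.06 (adjusted p = 0.88). Cep135, a cartwheel partner, was at background. In this role 4 of 13 genes fell (30.8%, beside 9.0% of all genes) and none rose (8.63% of all genes did). The median log2 fold change was -0.64, beside 0.06 over all genes.

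**Figure D2:**
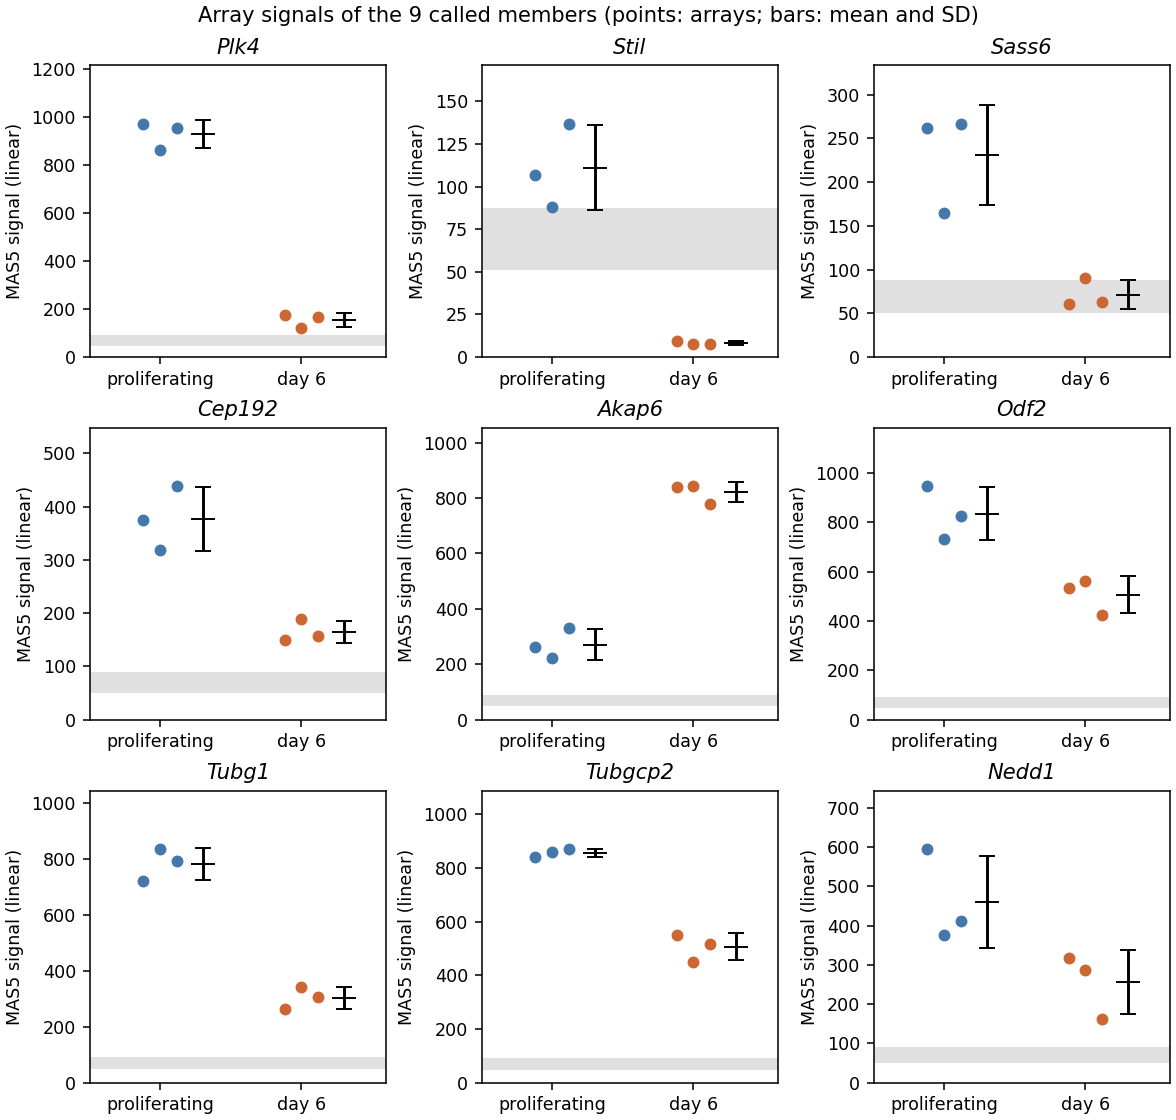
MAS5 signal (vertical axis, linear, from 0) of the 9 members that were called, in proliferating and day 6 cells. Points are the 3 arrays of each group, black bars the mean and SD, and the grey band runs over the highest bacterial controls, from 51.9 to 87.0. In none of the 9 genes do the groups overlap, and Stil lies under the band on every differentiated array.

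Of the genes of the gamma-tubulin ring, Tubg1, Tubgcp2 and the anchor Nedd1 fell, and the other 5 gave no call. Tubg1, the main gamma-tubulin, was at 722, 836 and 794 in proliferating cells and at 263, 342 and 306 on day 6. Its highest differentiated value was under the lowest proliferating one. Tubg1 fell by 1.33 on the log2 scale (SE 0.13, adjusted p = 2e-05), or 2.51-fold. Tubg2, its near-identical paralog, lay at background at both of its probe sets on all 6 arrays (29.6 to 38.9 and 36.3 to 48.5 at the brighter), so it has no fold here. Cross-hybridisation between these paralogs was not tested. Tubgcp2 (GCP2), which with Tubgcp3 forms the small gamma-tubulin complex, was at 840, 858 and 870 and then at 551, 451 and 515. Its proliferating arrays were close together and all above the differentiated ones. For Tubgcp2 the log2 fold change was -0.75 (SE 0.11, adjusted p = 0.00061), and it was not called with a variance model without trend (adjusted p = 0.052).

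Tubgcp3 itself was at 210, 279 and 274 and then at 246, 282 and 215, a log2 fold change of -0.03 (SE 0.19, adjusted p = 0.95). The groups of Tubgcp3 overlap throughout. Tubgcp4, Tubgcp5 and Tubgcp6, which complete the large ring, had values of -0.0017, -0.28 and 0.15 (SEs 0.18, 0.24 and 0.31), and none was called. The 2 further probe sets of Tubgcp4 were at -0.08 and 0.12, and those of Tubgcp5 were at background. Whether Tubg1 or Tubgcp2 differed in its change from the other subunits was not tested. Nedd1, which anchors the ring at the centrosome and the spindle, was at 595, 377 and 412 and then at 317, 287 and 163, with no overlap. It fell by 0.84 on the log2 scale (SE 0.24, adjusted p = 0.036). Its other probe set was at -1.28 (adjusted p = 0.0039), from 344, 260 and 348 to 91.1, 105 and 180. At the brighter probe set the call of Nedd1 was lost when proliferating array 1 (then -0.65) or array 3 (-0.90) was left out, and likewise for day 6 array 2 (-0.94) or array 3 (-0.56), and without the variance trend (adjusted p = 0.21). In this role 3 of 8 genes fell (37.5%, beside 9.0% of all genes) and none rose (8.63% of all genes did). The median was -0.15, beside 0.06 over all genes.

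Among matrix scaffolds and satellites, Akap6 rose (12.5% of 8 genes, beside 8.63% of all genes) and none of the other 7 genes passed. Akap6 (mAKAP) is an anchor for protein kinase A that sits at the nuclear envelope of muscle cells and there holds Pcnt and Akap9. In proliferating cells its signals were 261, 221 and 332, and on day 6 they were 840, 842 and 780. Every differentiated array was far above the highest proliferating one. Akap6 rose by 1.56 on the log2 scale (SE 0.15, adjusted p = 1.3e-05), or 2.95-fold. A dim second probe set of Akap6 was at 77.6, 19.5 and 50.2 and then at 59.6, 107 and 102, and its groups overlap. Judged by the control of each array, its proliferating signals were at background and its differentiated ones above it. The fitted value of 0.78 did not pass (adjusted p = 0.39).

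None of the transcripts of matrix and satellite proteins known to relocate (Pcnt, Cdk5rap2, Pcm1 and Akap9) was called. Pcnt (pericentrin, the large matrix scaffold) was at 467, 412 and 437 and then at 315, 387 and 298. The groups of Pcnt do not overlap, yet it did not pass, at -0.39 (SE 0.15, adjusted p = 0.12), and a second probe set was at -0.19. Cdk5rap2, which activates the gamma-tubulin ring, was at 280, 215 and 264 and then at 172, 188 and 145, a log2 fold change of -0.55 (SE 0.20, adjusted p = 0.11). The other probe sets of Cdk5rap2 were at -0.06 and -0.11. Pcm1, the core of centriolar satellites, was at 324, 241 and 266 and then at 343, 374 and 233, a log2 fold change of 0.17 (SE 0.20, adjusted p = 0.71). All 5 probe sets of Pcm1 had fitted values above 0, up to 0.56 (adjusted p = 0.14). Akap9 (AKAP450), which anchors the ring at the Golgi and the centrosome, was at 336, 239 and 254 and then at 290, 421 and 359, a log2 fold change of 0.35 (SE 0.18, adjusted p = 0.30).

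The remaining 5 probe sets of Akap9 also had fitted values above 0, and the highest was 1.44 (adjusted p = 0.056). That probe set was at background on all 3 proliferating arrays (5.3, 13.4 and 21.1) and above it on 2 of 3 differentiated ones (54.4, 61.9 and 62.3). It passed with eBayes without trend, with the regularized test and with a higher pseudocount. Probe sets of 1 gene share their transcripts and are not replicates. Cep57, which links the matrix to the centriole, was at 269, 231 and 296 and then at 176, 192 and 115, a log2 fold change of -0.69 (SE 0.22, adjusted p = 0.065). The groups of Cep57 do not overlap, and it passed under 4 other settings, the regularized test among them (adjusted p = 0.039). Cep70 was at -0.56 (SE 0.40, adjusted p = 0.47), above background on 1 of 3 day 6 arrays, and Cep72 was at background.

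Of appendage, linker and transition zone genes, Odf2 fell. Odf2 (cenexin) marks the older centriole and is needed for its appendages. Its signals were 945, 731 and 825 and then 533, 563 and 424, with no overlap. The change of Odf2 was -0.70 (SE 0.14, adjusted p = 0.004). A second probe set of Odf2 passed, at -1.23 (adjusted p = 0.026), though only 1 day 6 array exceeded background there. The 3 others, 1 of them at background, were at -0.78, 0.03 and -0.65 and did not pass. The call of Odf2 was lost without the variance trend (adjusted p = 0.11) and with its probe sets averaged (adjusted p = 0.054).

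Nin (ninein) anchors microtubules at the subdistal appendages and is another protein that moves to the nuclear envelope of myotubes. At its brightest probe set Nin was at 616, 385 and 438 and then at 333, 376 and 326, a log2 fold change of -0.43 (SE 0.17, adjusted p = 0.14). A dimmer probe set of Nin was at 132, 198 and 162 in proliferating cells and at 39.8, 22.5 and 23.6 on day 6, the latter all at background. That probe set passed (adjusted p = 0.0034) as a fall of at least 2.74-fold, and the remaining one did not, at -0.32 (adjusted p = 0.62). With all 3 averaged Nin was called lower (-0.93, adjusted p = 0.006). Which Nin transcripts each probe set detects was not tested.

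Cep164, of the distal appendages, was at 273, 324 and 436 and then at 255, 262 and 250, a log2 fold change of -0.38 (SE 0.18, adjusted p = 0.24). Cep170, a subdistal appendage protein, was at -0.24 (adjusted p = 0.39). Cep350, which stabilises centriolar microtubules, was at 0.19 (SE 0.12, adjusted p = 0.42), with groups that do not overlap. The linker protein Cep250 (C-Nap1) was at -0.38 (SE 0.49, adjusted p = 0.73), and Cep290, of the transition zone of cilia, was at background. The median over the 7 genes of this role was -0.38, with 1 called lower (14.3%, beside 9.0% of all genes).

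**Figure D3:**
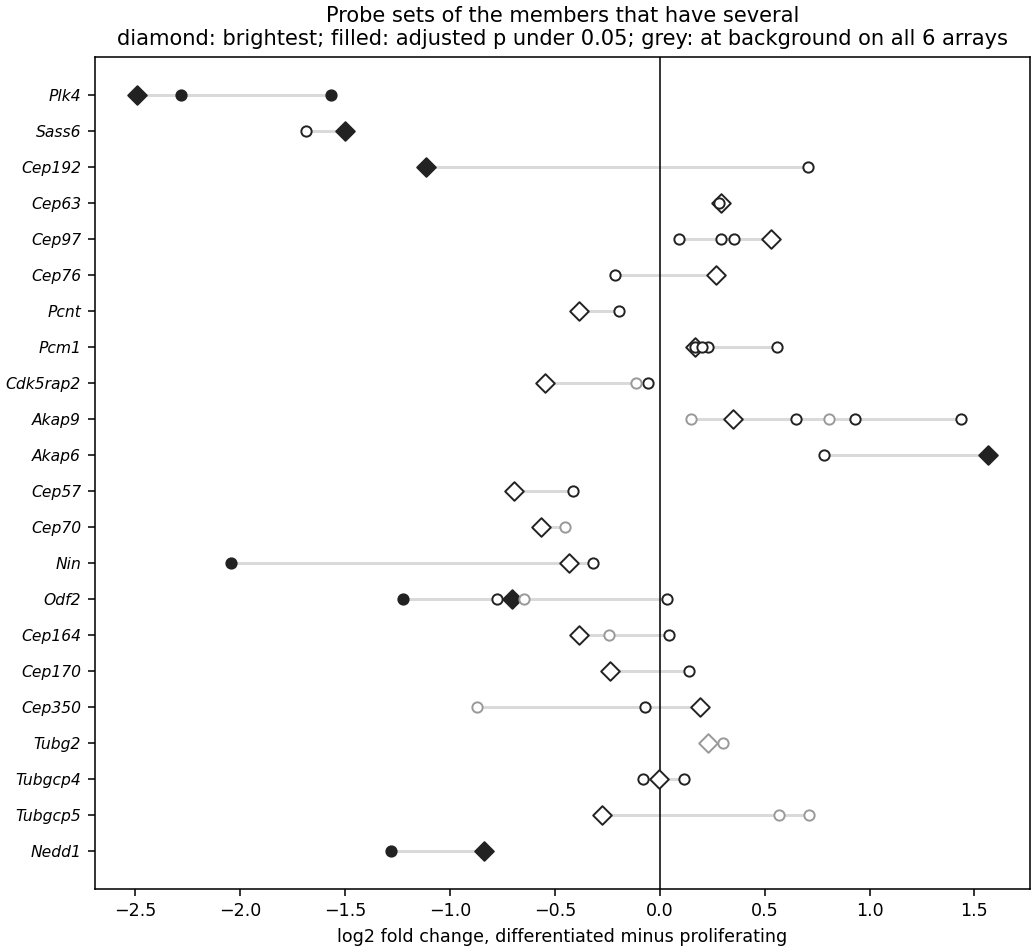
Change (horizontal axis, log2 scale, day 6 minus proliferating) of every probe set of the 22 members that have several. Diamonds are the brightest probe set of a gene, filled symbols have an adjusted p under 0.05, and grey ones were at background on all 6 arrays. All filled symbols of a gene lie on the same side of 0. Values of probe sets at background in a group are fitted and are not bounds.

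Counted over probe sets, 13 of 77 were called lower (16.9%, beside 6.43% of all probe sets) and 1 higher (1.30%, beside 6.14%). Background on all 6 arrays held for 14 of the 77. At least 1 probe set was called in 10 members, the 9 above and Nin, and in no member did called probe sets disagree in direction. The matching share of all genes was not worked out, and a gene with more probe sets has more chances of a call. Plk4 passed at 3 of 3, Nedd1 at 2 of 2 and Odf2 at 2 of 5. The log2 fold change over all 77 had a median of -0.11, beside 0.05 for all probe sets.

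Among genes that work with these members in mitosis, all 9 of a list were lower, beside 9.0% of all genes. The list holds mitotic kinases, spindle factors, the midbody protein Cep55 and the kinetochore motor Cenpe. Its median change was -2.80 on the log2 scale. Nek2, which severs the centrosome linker, was at -3.67 (adjusted p = 1.8e-05), though only 1 day 6 array exceeded background. Plk1 and Aurka, the kinases of centrosome maturation, were at -3.20 and -3.16 (adjusted p = 7.1e-09 and 1.4e-08), and Cep55, of the midbody, at -3.10 (adjusted p = 9.2e-07). Day 6 signals of Cep55, and of Tacc3 and Bora in the same list, were above background on 2 of 3 arrays. Those of Cenpe were above it on 1 of 3. Augmin, which loads the ring onto existing spindle microtubules, was lower in 6 of its 8 subunits (75%, beside 9.0% of all genes). Its median was -1.01, beside 0.06 over all genes. Haus1, Haus8, Haus6 and Haus5 were at -2.05, -1.62, -1.49 and -1.30 (adjusted p = 1.7e-06, 0.0056, 0.0051 and 0.011), while Haus2 (0.19) and Haus7 (-0.28) were not called. On day 6 Haus8 was above background on 1 of 3 arrays and Haus6 and Haus5 on 2 of 3, so their values rest partly on signals at background.

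Of 20 further centriole and satellite genes 4 were lower (20.0%, beside 9.0% of all genes) and 1 higher (5.0%, beside 8.63%). Their median change was -0.05. Poc1a and Poc1b, of the centriole wall, were at -1.99 and -0.86 (adjusted p = 0.0062 and 0.0018), the former above background on 1 of 3 day 6 arrays, and Cep41, of ciliary tubulin modification, was at -1.04 (adjusted p = 0.0063). Cep295 was called lower as well but was above background on only 1 of the 6 arrays. Cetn2 (centrin) was higher by 0.40 (adjusted p = 0.04). A further list held 11 partners of the minus end and of the ring together with more general microtubule proteins such as Map4. Of these 11 genes 2 were higher (18.2%, beside 8.63% of all genes) and 1 lower (9.09%, beside 9.0%). Mzt1, a small subunit that lets the ring bind its anchors, rose from 517 ± 43.3 to 799 ± 29.8 (SD, n = 3 each), by 0.61 (adjusted p = 0.0024 from limma). Map4, a microtubule stabiliser, was higher by 0.50 (adjusted p = 0.0071), and Ckap5, a polymerase that is also in the mitotic list, was lower, at -0.98 (adjusted p = 0.00011). None of Camsap1, Camsap2 and Camsap3, which cap free minus ends, was called, and Camsap3 was at background throughout.

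Of 7 nuclear envelope genes 4 were lower (57.1%, beside 9.0% of all genes) and 2 higher (28.6%, beside 8.63%). Syne1 (nesprin-1), whose muscle isoform binds Akap6, had a change of 1.56 (SE 0.13, adjusted p = 2.9e-06), with signals of 280 ± 30.0 and 856 ± 42.9 (SD, n = 3 each). Beside it Sun1 was at 0.61 (adjusted p = 0.00093) and Sun2 at 0.29 (adjusted p = 0.13). Syne3, Syne2 and Lmna were lower, at -2.19, -1.25 and -1.0 (adjusted p = 0.00013, 0.031 and 1e-05), and for Syne3 and Syne2 only 1 day 6 array exceeded background. Emd (emerin) was lower as well, at -0.45 (adjusted p = 0.049). From these same arrays the paper had already reported a rise of Sun1 and falls of the lamins and emerin.

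**Figure D4:**
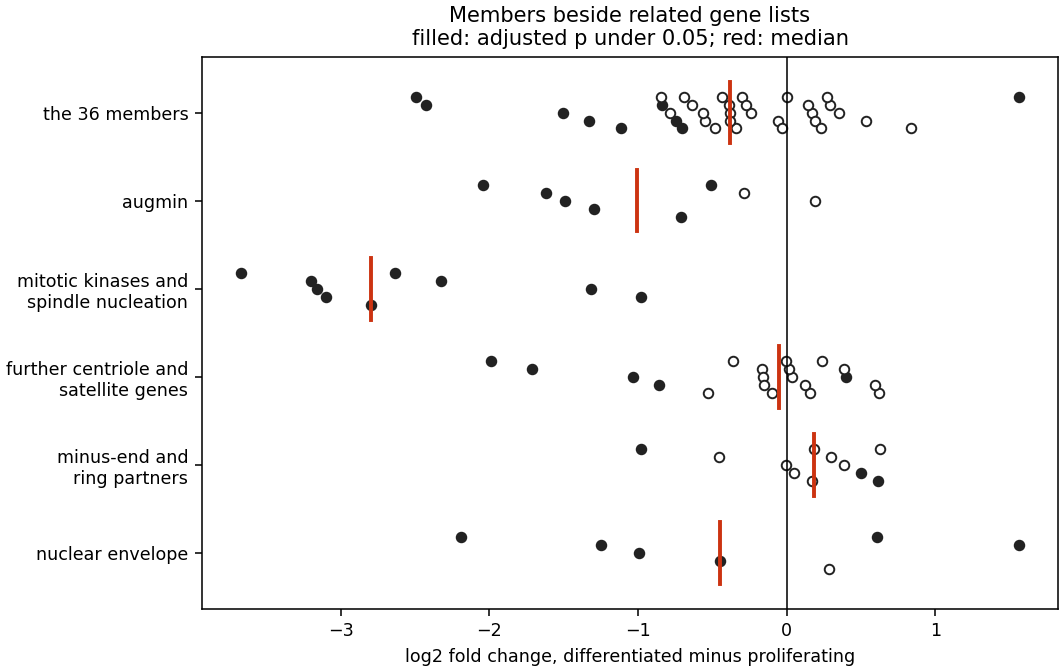
Change (horizontal axis, log2 scale, day 6 minus proliferating) of the 36 members and of the genes of 5 related lists (vertical axis), each at its brightest probe set. Filled circles have an adjusted p under 0.05 and red lines are medians, -0.38 for the members, -1.01 for augmin and -2.80 for the mitotic genes. Genes at background in 1 group are drawn at fitted values, not at bounds.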

How the data were processed

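RNA of 6 samples, 3 per group, was hybridised to Affymetrix mouse genome arrays. The authors deposited 1 intensity per probe set, a linear MAS5 signal, scaled on each array to a trimmed mean of 250. The study's methods then applied GCRMA and a Bayesian regularized test, and GCRMA was not repeated because it needs probe-level data. Of 45101 probe sets, 64 controls were left out. Signals plus 15, about the 20th percentile of all values (14.8), were taken to log2 with no further normalization and tested 2-sided by lmFit and eBayes with trend (limma 3.58.1, R 4.3.3). All adjusted p-values are from this fit unless another test is named, and they measure only the spread between these pooled samples. The fit was also run on simulated data, with changes set only in probe sets brighter than the median. That run therefore does not cover dim probe sets.

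The platform annotation gave 34945 probe sets 1 gene, 932 several and 9160 none. Promoters are from RefSeq (GRCm38.p6). Members and lists were chosen with earlier results of these data known. Every member is named within its role. Array values were to be given for members that passed with a change of 1.5-fold and for a fixed set of core members. Outside that rule they are also given for Cep152, Ccp110, Cep97, Tubgcp3, Cep57 and Cep164. For each related list the rule was up to 4 passing genes, with Syne1, Sun1 and Sun2 always named. Some further genes of these lists are named as well. Ccnb1 and Plin1 are unnamed in the annotation used. Alternatives covered pseudocount, normalization, dim probe sets, variance model, the regularized test (window 101, 10 prior degrees of freedom), pairing, each array left out, thresholds and the choice of probe set. Promoters and tables were read with pandas 2.3.3 in Python 3.11.15.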

Additional observations from a re-analysis of the deposited data

How the results depend on the processing

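Precision rests on 3 arrays of pooled RNA per group, and dim probe sets near the bacterial controls limit Cep135, Cep72, Cep290, Tubg2, Cep250 and the size of the fall of Stil. Over 18 alternatives the number of member genes called lower ran from 5 to 9 and the number called higher was 1 throughout. Of the 9 called members, 5 (Plk4, Stil, Sass6, Tubg1 and Akap6) were called under every alternative that gave a value, and Stil gave none with dim probe sets left out. With eBayes without trend 5 members were called lower, and Odf2 (adjusted p = 0.11), Tubgcp2 (0.052) and Nedd1 (0.21) were not. Calls over all probe sets dropped in that setting too, from 2894 to 1302 in the lower direction. With all probe sets of a gene averaged Cep192 and Odf2 (-0.66, adjusted p = 0.054) were not called. At an adjusted p under 0.01 Nedd1 was not. With eBayes without trend, with a pseudocount of 49.6 (the 40th percentile) and with the regularized test 2 member probe sets were called higher, the second being one of Akap9. With single arrays left out 7 or 8 members were called lower, and the median change lay between -0.48 and -0.29. Over all probe sets 2304 to 2542 were then called lower, beside 2894 with all arrays.

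Signs turned only in members without a call. With probe sets averaged, Cep350 was at -0.25, Tubgcp4 at 0.0107 and Tubgcp5 at 0.33. With single arrays left out, Tubgcp4 ran from -0.18 to 0.13, Tubgcp3 from -0.16 to 0.0593, Cntrob from -0.12 to 0.0184 and Cep250 from -0.82 to 0.0071. With the replicate block 8 members were called lower and 1 higher, as without it, and 13 probe sets lower. Arrays with the same number shared only the number (Pearson's r of their deviations across probe sets 0.0125, 0.000663 and 0.00937), and not every array correlated best with its own number. The causes of these differences were not tested.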
